A study of Mus musculus with 8 samples.

Results

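The Slc25a genes encode the mitochondrial carriers, the transport proteins that move nucleotides, amino acids, organic acids, cofactors and metal ions across the inner mitochondrial membrane. They were taken here as every gene of the deposited table whose identifier belongs to a protein-coding mouse gene with a symbol starting with Slc25a. There were 47 of them among 55385 genes, and 36 had enough reads to be tested among 14929 tested genes. Their polyadenylated mRNA was compared between oocytes at metaphase II (MII, matured eggs) and germinal vesicle (GV) oocytes, which are fully grown and arrested in prophase, each grown in culture from 2 mouse embryonic stem cell lines.

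The groups were MII oocytes of the sex-converted XX line N2DsRed4XO63R2, MII oocytes of the native XX line H18, GV oocytes of the sex-converted line and GV oocytes of the native line. Both lines are of strain C57BL/6 x 129/SvJ and carry the reporter transgenes Blimp1-mVenus and Stella-ECFP. Each condition is represented by a single stem cell line, so a difference between conversion states cannot be told apart from a difference between lines. In all groups, germ cells induced from the stem cells were aggregated with female fetal gonadal somatic cells and kept in differentiation culture for 21 days, and their follicles were grown until day 11 of growth culture. GV oocytes were taken then, with dibutyryl-cAMP and IBMX present while cumulus cells were removed with a capillary. MII oocytes had a further 16 hours of maturation culture, lost their cumulus cells to hyaluronidase and were recognised by the polar body. A library pooled 35 to 58 MII oocytes or 31 to 158 GV oocytes, and each group had 2 libraries that the labels call biological duplicates. Nothing says whether these came from separate cultures, so p-values measure the spread between these libraries, which may in part be technical.

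Mitochondrial carriers share a fold of repeated pairs of membrane helices and mostly exchange a solute of the matrix for one of the intermembrane space. They link the cytosol to oxidative phosphorylation, the citric acid cycle, the urea and one-carbon pathways and the synthesis of haem and iron-sulphur clusters. Oocytes depend on mitochondria for their ATP, rely on pyruvate rather than glucose, and mature without new transcription, so their mRNA pools change by decay, by storage and by changes in the length of the poly(A) tail. Libraries of polyadenylated RNA cannot tell a longer tail from more mRNA, and pools of oocytes cannot tell fewer cells of a type from less RNA per cell.

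The libraries held 10306471 to 14999003 counted reads, of which the Slc25a genes took 0.14% to 0.149% at MII and 0.145% to 0.195% at GV. Levels are given as CPM (counts scaled to a common library size) after scaling by trimmed mean of M-values (TMM), which makes a stage change relative to the other mRNAs. The oocyte markers summed to between 16800 and 20200 CPM at MII and between 14400 and 17900 CPM at GV, and all 12 were detected. Markers of the other cells were lower but moved with stage. The 17 granulosa and cumulus markers summed to between 119 and 159 CPM at MII and between 57.3 and 79.3 CPM at GV, with 1 of them at 0 reads in every library. Of the 10 tested, 3 were called higher and 1 lower in the sex-converted line, and 5 higher and 1 lower in the native line. Cyp19a1, Kitl and Has2 were higher in both lines, while Fshr was lower in both and had 0 reads in every MII library. Nr5a2 was not called, at 27.5 and 26.2 CPM in sex-converted and native MII and 37.8 and 39.3 CPM in sex-converted and native GV oocytes. Foxl2, Amh, Amhr2, Hsd17b1, Ptx3, Tnfaip6 and Cd44 had too few reads to be tested, so the marker sums do not describe the whole list. The 12 stromal and theca markers summed to 57.5 and 16.1 CPM in sex-converted MII libraries 1 and 2 and to 89.3 and 16.2 CPM in native MII libraries 1 and 2, against 2.15 to 2.62 CPM at GV, with 2 at 0 reads throughout. The 10 endothelial and blood markers summed to between 207 and 292 CPM at MII and between 77.6 and 115 CPM at GV, with 3 at 0, and most of that sum was Pecam1, at 251 ± 34.7 CPM in native MII and 73.7 ± 20.9 CPM in native GV oocytes (SD, n = 2 each). The part of these markers in the results below was not tested.

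More Slc25a genes rose than fell at MII, in both lines. In the sex-converted line 19 of 36 were higher and 9 lower at MII than at GV, 52.8% and 25% of those tested, and over all tested genes 29.3% were higher and 36.2% lower. In the native line 17 of 36 were higher and 9 lower, 47.2% and 25%, beside 29.6% and 35.7% of all tested genes. Counts for the groups and lists below are to be read beside these shares of all tested genes. Calls in either direction made up 77.8% and 72.2% of the carriers and 65.5% and 65.2% of all tested genes in the sex-converted and native line. These calls are at an adjusted p under 0.05 in edgeR's quasi-likelihood test. The median log2 fold change of the 36 genes was 0.74 in the sex-converted and 0.69 in the native line, where that of all tested genes was -0.34 and -0.31. Scaled by library totals alone, which moves the median of all genes by -0.93 and -0.91, the direction of the family turned to 6 higher and 12 lower in the sex-converted line and to 8 higher and 14 lower in the native line, with medians of -0.20 and -0.22. The share of higher genes among the family's calls was then 33.3% and 36.4%, against 67.9% and 65.4% with TMM, and over all genes it was 23.4% and 24.6% against 44.7% and 45.3%. By either scaling the family's median lay above that of all genes.

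The same 17 genes were called higher and the same 9 lower in both lines, 2 were called higher in the sex-converted line alone, and 8 were called in neither. No gene was called in opposite directions. The 17 were Slc25a13, Slc25a14, Slc25a15, Slc25a16, Slc25a22, Slc25a24, Slc25a26, Slc25a32, Slc25a33, Slc25a36, Slc25a38, Slc25a39, Slc25a40, Slc25a44, Slc25a46, Slc25a51 and Slc25a53. The 9 included Slc25a1, Slc25a4, Slc25a20, Slc25a23, Slc25a28, Slc25a30, Slc25a35 and Slc25a48. At a fitted change of at least 2-fold, 14 were higher and 8 lower in the sex-converted line and 14 higher and 9 lower in the native line. The share of all tested genes at this limit was not counted. The median absolute log2 fold change of the 36 carriers was 1.32 in the sex-converted and 1.36 in the native line. That of all tested genes was larger, at 1.63 in each line. Of the 17, 5 kept both calls under every alternative that was run (Slc25a15, Slc25a16, Slc25a32, Slc25a38 and Slc25a40), and of the 9, 7 did, all but Slc25a20 and Slc25a30. Slc25a39, Slc25a44, Slc25a46 and Slc25a53 lost calls only with library totals alone. That scaling moves values downward, so higher and lower calls were not put to an equal trial. The share of all tested genes that kept their calls was not counted.

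**Figure D1:**
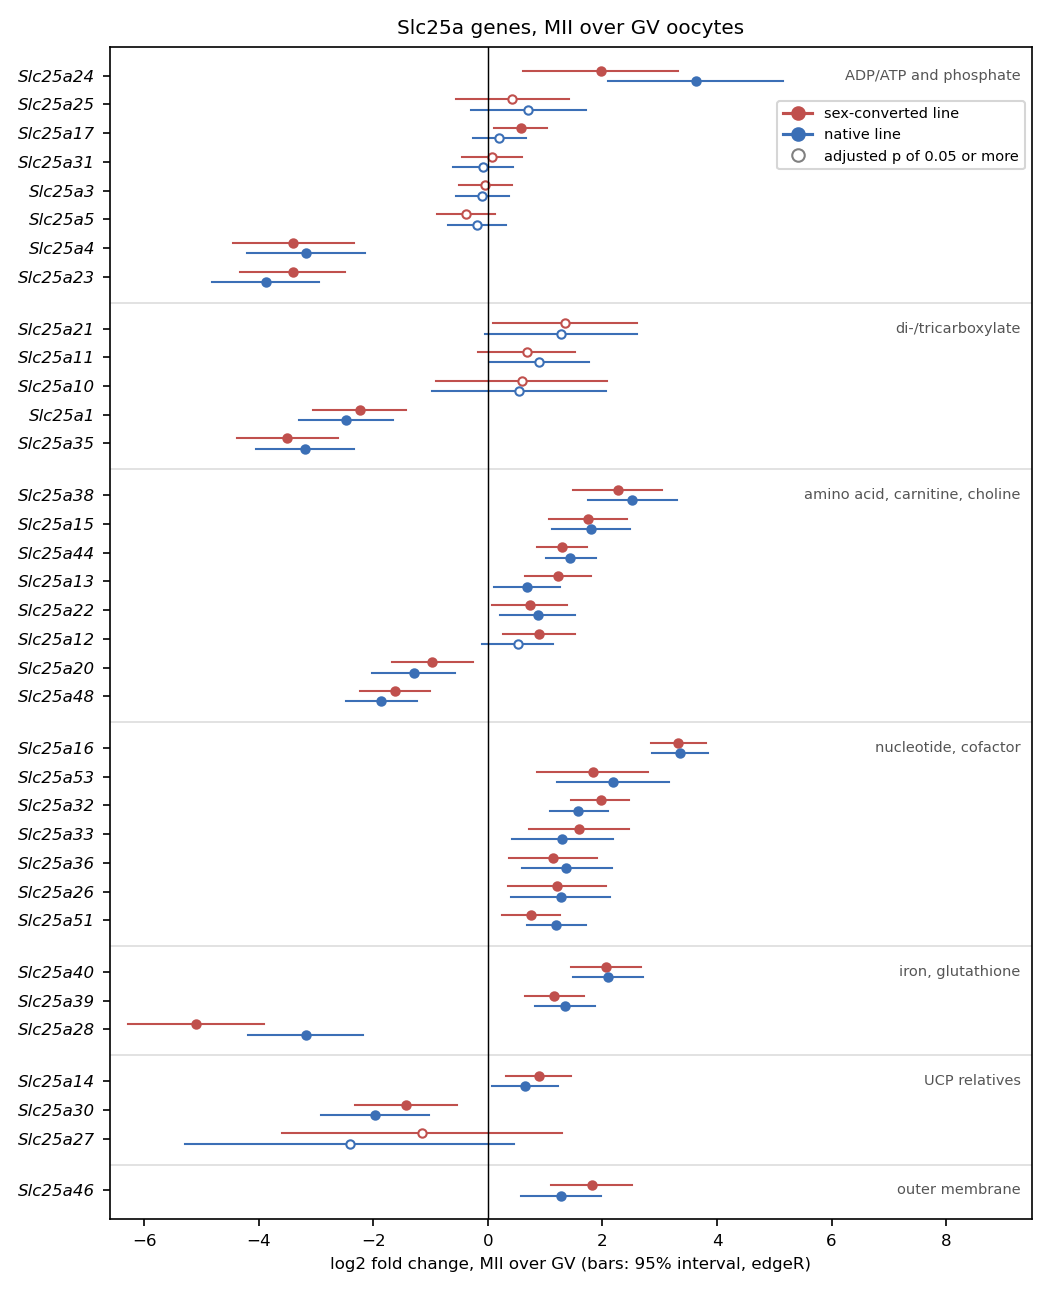
Log2 fold changes of MII over GV for 35 of the 36 tested Slc25a genes, grouped by what they carry, with 95% intervals from edgeR (red, sex-converted line; blue, native line; open circles, adjusted p of 0.05 or more). Slc25a16 lies farthest to the right in the sex-converted line at 3.32 and Slc25a28 farthest to the left at -5.10, and in the native line Slc25a24 at 3.63 and Slc25a23 at -3.87.

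Carriers of nucleotides and cofactors moved mostly one way, with 7 of 8 tested genes higher in each line. Over all tested genes 29.3% were higher in the sex-converted and 29.6% in the native line. Slc25a16, whose yeast counterpart is needed for coenzyme A in mitochondria, changed most in this group of carriers. It was at 213 and 225 CPM in sex-converted MII oocytes and 201 and 225 CPM in native MII oocytes, against 23.4 and 20.5 CPM in sex-converted GV oocytes and 17.9 and 23.7 CPM in native GV oocytes. Every MII library lay far above every GV library. The log2 fold change was 3.32 (SE 0.218, edgeR adjusted p = 7.39e-07) in the sex-converted line and 3.36 (SE 0.219, adjusted p = 6.8e-07) in the native line, close to a 10-fold difference (9.99-fold and 10.2-fold). Slc25a16 (ENSMUSG00000071253.8) is at chr10:62920633-62946498 of GRCm38, plus strand.

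Slc25a32, which carries folate or flavin adenine dinucleotide into the matrix, was at 137 and 148 CPM in sex-converted MII and 104 and 140 CPM in native MII oocytes, against 36.8 and 36.2 CPM in sex-converted GV and 46.5 and 34.8 CPM in native GV oocytes. The stages did not overlap, and native MII replicate 1 was the lowest of the MII libraries. Its log2 fold change was 1.97 (SE 0.231, edgeR adjusted p = 2.4e-05) in the sex-converted and 1.58 (SE 0.228, adjusted p = 0.000108) in the native line. Slc25a26, the carrier of S-adenosylmethionine, the methyl donor, was at 51.5 and 48.2 CPM in sex-converted MII and 53.4 and 55.5 CPM in native MII oocytes, against 29.0 and 14.3 CPM in sex-converted GV and 13.9 and 31.2 CPM in native GV oocytes. Its MII libraries were close together, and each line had a higher and a lower GV library. On the log2 scale the change was 1.21 in the sex-converted line (SE 0.39, adjusted p = 0.0183 in edgeR) and 1.27 in the native line (SE 0.391, adjusted p = 0.0141). The sex-converted call was lost without sex-converted GV replicate 2 (0.82, adjusted p = 0.112) or MII replicate 1 (1.15, adjusted p = 0.0612), the native call without native GV replicate 1 (0.83, adjusted p = 0.0755), and both with library totals alone (0.26 in the sex-converted and 0.35 in the native line). Slc25a26 shares 3% of its exon length with the antisense gene Lrig1, which had 16341 reads over the 8 libraries.

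The other higher genes of this group were less abundant. Slc25a51, the carrier of nicotinamide adenine dinucleotide (NAD), was at 36.9 ± 1.15 and 44.9 ± 0.528 CPM in sex-converted and native MII oocytes and at 21.9 ± 1.21 and 19.6 ± 3.58 CPM in sex-converted and native GV oocytes (SD, n = 2 each). Its log2 fold changes were 0.75 in the sex-converted and 1.19 in the native line (adjusted p = 0.0138 and 0.000914 in edgeR), but with library totals alone both calls were lost (-0.18 in the sex-converted and 0.28 in the native line). The sex-converted call was also lost without sex-converted GV replicate 1 (0.70, adjusted p = 0.0761) or MII replicate 2 (0.72, adjusted p = 0.0691). The pyrimidine nucleotide carriers Slc25a33 and Slc25a36 were at 6.96 ± 1.18 and 13.5 ± 1.25 CPM in sex-converted MII and 2.32 ± 0.595 and 6.15 ± 0.835 CPM in sex-converted GV oocytes. Slc25a33 had log2 fold changes of 1.59 in the sex-converted and 1.3 in the native line, the native call being lost without native GV replicate 2 (1.26, adjusted p = 0.0626) or native MII replicate 2 (0.97, adjusted p = 0.113). Slc25a36 had 1.13 in the sex-converted and 1.37 in the native line, the sex-converted call being lost without sex-converted GV replicate 2 (1.03, adjusted p = 0.0764) or MII replicate 2 (1.04, adjusted p = 0.0739). Slc25a53, at 5.13 ± 0.282 CPM in sex-converted MII and 1.44 ± 0.319 CPM in sex-converted GV oocytes, had 1.83 in the sex-converted and 2.19 in the native line. With library totals alone Slc25a33 lost both calls (0.65 in the sex-converted and 0.39 in the native line), as did Slc25a36 (0.20 in the sex-converted and 0.47 in the native line), and Slc25a53 lost the sex-converted one (0.89, adjusted p = 0.101).

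Among carriers of amino acids, carnitine and choline, 6 of 8 tested genes were higher and 2 lower at MII in the sex-converted line, and 5 were higher and 2 lower in the native line. Slc25a15, the ornithine carrier, was the most abundant carrier of MII oocytes. It was at 593 and 603 CPM in sex-converted MII and 584 and 587 CPM in native MII oocytes, against 228 and 129 CPM in sex-converted GV and 117 and 219 CPM in native GV oocytes. The 4 MII libraries almost coincided, and the GV libraries fell into a higher and a lower one in each line. The log2 fold change was 1.74 (SE 0.31, edgeR adjusted p = 0.000478) in the sex-converted and 1.80 (SE 0.31, adjusted p = 0.000391) in the native line. Slc25a15 (ENSMUSG00000031482.9) is at chr8:22375551-22398597 of GRCm38, minus strand. Of the mRNA of all Slc25a genes, taken as the sum of CPM per kilobase of exon, Slc25a15 made up 20.1% to 21.3% at MII and 6.37% to 10.3% at GV.

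Slc25a38, the carrier that supplies glycine for the start of haem synthesis, was at 138 and 128 CPM in sex-converted MII and 158 and 144 CPM in native MII oocytes, against 34.9 and 20.5 CPM in sex-converted GV and 16.8 and 36.0 CPM in native GV oocytes. All MII values exceeded all GV values, with the same higher and lower GV libraries as for Slc25a15. On the log2 scale the change was 2.27 (SE 0.351, edgeR adjusted p = 0.00018) in the sex-converted and 2.52 (SE 0.355, adjusted p = 9.12e-05) in the native line. Slc25a44, the carrier of branched-chain amino acids, was at 121 and 119 CPM in sex-converted MII and 145 and 118 CPM in native MII oocytes, against 49.8 and 48.4 CPM in sex-converted GV and 45.4 and 51.3 CPM in native GV oocytes. Its GV libraries were nearly equal in both lines, and the log2 fold changes were 1.29 in the sex-converted and 1.44 in the native line (SE 0.198 each, adjusted p = 0.000165 and 7.58e-05). With library totals alone the sex-converted call of Slc25a44 was lost (0.35, adjusted p = 0.133).

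The aspartate/glutamate carriers of the malate-aspartate shuttle and the glutamate carrier changed less. Slc25a13 was at 30.2 ± 5.78 and 32.5 ± 5.22 CPM in sex-converted and native MII oocytes and at 13.0 ± 1.80 and 20.3 ± 1.67 CPM in sex-converted and native GV oocytes (SD, n = 2 each), with log2 fold changes of 1.22 in the sex-converted and 0.68 in the native line (adjusted p = 0.00182 and 0.0385 in edgeR). With library totals alone the values were 0.29 in the sex-converted line (adjusted p = 0.343), where the call was lost, and -0.23 in the native line. The native call was also lost without native GV replicate 1 (0.63) or 2 (0.77), sex-converted MII replicate 1 (0.66) or 2 (0.66) or native MII replicate 2 (0.48), with adjusted p of 0.0548 to 0.236. Slc25a12, at 14.4 ± 0.37 and 15.8 ± 1.91 CPM in sex-converted and native MII and 7.72 ± 0.794 and 11.0 ± 1.85 CPM in sex-converted and native GV oocytes, was called in the sex-converted line alone (0.90, adjusted p = 0.017, and -0.040 with library totals alone) and had 0.52 in the native line (adjusted p = 0.128). Its call was lost without sex-converted GV replicate 2 (0.83, adjusted p = 0.0881), MII replicate 1 (0.92, adjusted p = 0.0577) or MII replicate 2 (0.87, adjusted p = 0.0738), and the interaction of line and stage was 0.38 (95% interval -0.507 to 1.26).

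Slc25a22, the glutamate carrier, was at 35.1 and 27.2 CPM in sex-converted MII and 32.7 and 33.2 CPM in native MII oocytes, against 22.1 and 15.5 CPM in sex-converted GV and 13.9 and 22.2 CPM in native GV oocytes. The stages did not overlap, although the highest GV libraries came close to the lowest MII library. Its log2 fold changes of 0.73 in the sex-converted and 0.87 in the native line (adjusted p = 0.0495 and 0.0245 in edgeR) became -0.21 and -0.049 with library totals alone. The sex-converted call was lost on leaving out any single MII library (0.53 to 0.90, adjusted p = 0.0602 to 0.251) and without sex-converted GV replicate 2 (0.53, adjusted p = 0.233). The native call was lost without native GV replicate 1 (0.59, adjusted p = 0.145), native MII replicate 1 (0.87, adjusted p = 0.0708) or native MII replicate 2 (0.83, adjusted p = 0.0832).

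The lower genes of this group were the choline and the carnitine carriers. Slc25a48, which carries choline, was at 50.8 and 61.0 CPM in sex-converted MII and 55.6 and 45.8 CPM in native MII oocytes, against 203 and 140 CPM in sex-converted GV and 139 and 229 CPM in native GV oocytes. It was the most abundant carrier per kilobase at GV, and all 4 of its MII libraries lay below all 4 GV libraries. The log2 fold change was -1.62 (SE 0.277, edgeR adjusted p = 0.000363) in the sex-converted and -1.86 (SE 0.279, adjusted p = 0.000145) in the native line. Slc25a20, which exchanges carnitine for acylcarnitines ahead of fatty acid oxidation, was at 8.20 ± 1.99 and 5.96 ± 0.895 CPM in sex-converted and native MII oocytes and at 16.1 ± 4.22 and 14.6 ± 0.276 CPM in sex-converted and native GV oocytes (SD, n = 2 each). It had log2 fold changes of -0.97 in the sex-converted and -1.29 in the native line (adjusted p = 0.0206 and 0.00508), and the sex-converted call was lost without sex-converted GV replicate 1 (-0.67, adjusted p = 0.164) or MII replicate 1 (-0.75, adjusted p = 0.143). Slc25a48 (ENSMUSG00000021509.5) is at chr13:56438355-56474239 of GRCm38, plus strand.

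**Figure D2:**
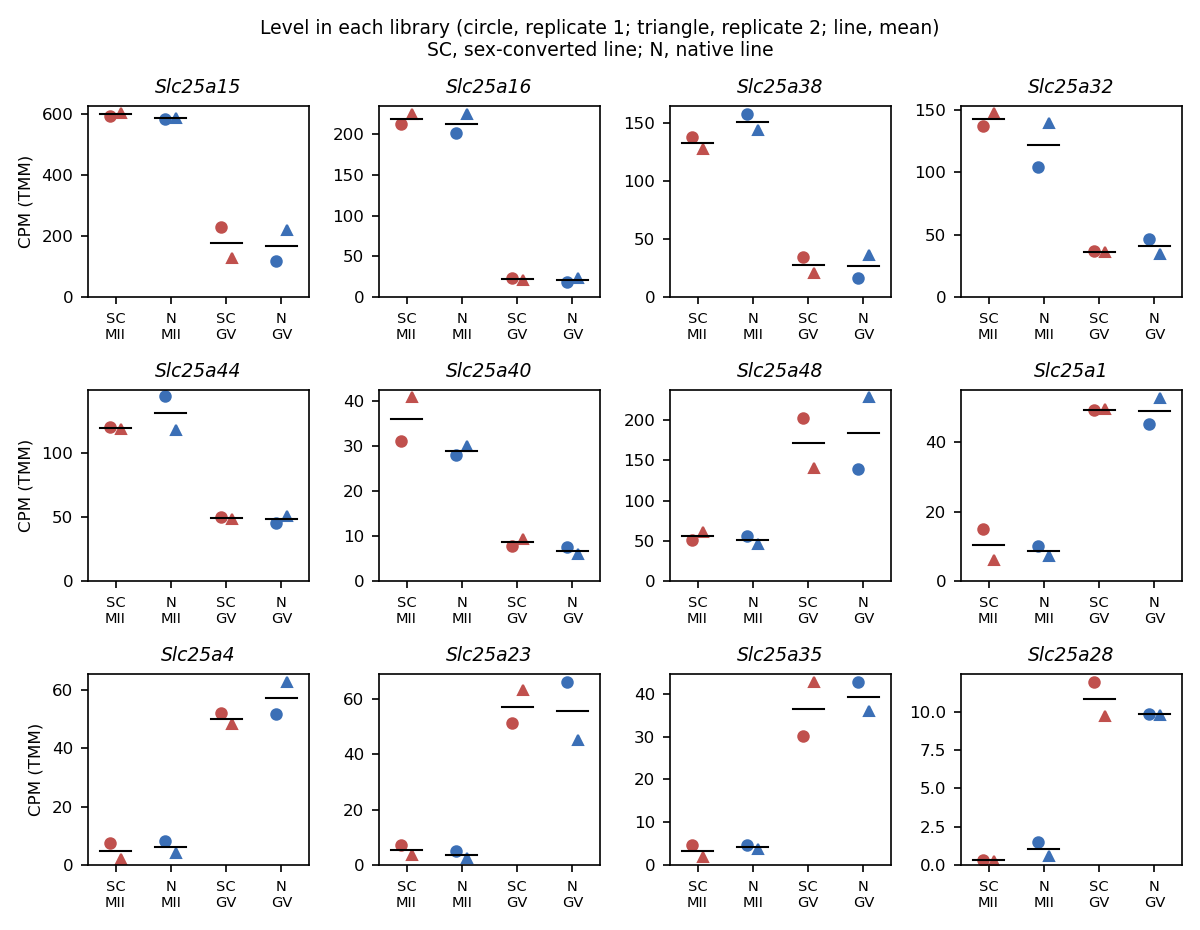
CPM of 12 Slc25a genes in each library (circle, replicate 1; triangle, replicate 2; line, group mean; SC, sex-converted line, red; N, native line, blue). The 12 were picked from genes called in both lines, so their lack of overlap between MII and GV libraries is no separate result. Carriers whose stages overlap, such as Slc25a3 and Slc25a31, are not drawn. The GV libraries of Slc25a15, Slc25a38 and Slc25a48 lie apart within each line.

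The carriers of adenine nucleotides and phosphate had 2 of 8 tested genes higher and 2 lower in the sex-converted line. In the native line 1 was higher and 2 lower. These 8 genes include ATP-Mg/phosphate carriers and the peroxisomal Slc25a17, so the counts are not those of oxidative phosphorylation alone. Among the ADP/ATP carriers, the muscle and heart form fell while levels of the germ cell and the widespread form did not pass the test. Slc25a4 was at 7.44 and 2.19 CPM in sex-converted MII and 8.31 and 4.17 CPM in native MII oocytes, against 52.2 and 48.2 CPM in sex-converted GV and 51.9 and 62.6 CPM in native GV oocytes. Each MII library lay well below each GV library. Its log2 fold change was -3.40 (SE 0.479, edgeR adjusted p = 9.02e-05) in the sex-converted and -3.18 (SE 0.468, adjusted p = 0.000124) in the native line, 10.5-fold and 9.09-fold lower. The MII libraries with more Slc25a4 were those with higher stromal marker sums, replicate 1 of each line. The lowered carriers Slc25a1, Slc25a23 and Slc25a35 were also higher in replicate 1 of each MII group. Slc25a20, Slc25a30 and Slc25a48 were not so in both lines. Slc25a28 was higher in native MII replicate 1 than 2 (1.53 and 0.579 CPM) and nearly level in the sex-converted MII libraries (0.328 and 0.285 CPM). The part of somatic RNA in the MII levels of these genes was not tested. Slc25a4 (ENSMUSG00000031633.4) is at chr8:46206797-46211284 of GRCm38, minus strand.

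Slc25a31, the ADP/ATP carrier of germ cells, was at 96.3 and 72.0 CPM in sex-converted MII and 72.2 and 84.1 CPM in native MII oocytes, against 87.0 and 73.8 CPM in sex-converted GV and 69.4 and 96.5 CPM in native GV oocytes. The stages overlapped fully. On the log2 scale the change was 0.066 (SE 0.237, edgeR adjusted p = 0.819) in the sex-converted and -0.085 (SE 0.238, adjusted p = 0.768) in the native line. Slc25a5, the ADP/ATP carrier of most dividing cells, was at 39.7 and 32.5 CPM in sex-converted MII and 50.3 and 41.3 CPM in native MII oocytes, against 51.9 and 42.3 CPM in sex-converted GV and 48.8 and 55.4 CPM in native GV oocytes. Its values overlapped in the native line, and the log2 fold changes were -0.38 in the sex-converted and -0.18 in the native line (SE 0.23 each, adjusted p = 0.163 and 0.499). With library totals alone, both were called lower in both lines, Slc25a5 with -1.32 in the sex-converted and -1.10 in the native line and Slc25a31 with -0.87 in the sex-converted and -1.0 in the native line (adjusted p = 0.00981 and 0.00479). The pseudogene Slc25a5-ps had 0 to 13 reads in any library, and the sources used here do not give how reads with several matches were counted. Slc25a31 (ENSMUSG00000069041.8) is at chr3:40708855-40726096, plus strand, and Slc25a5 (ENSMUSG00000016319.3) at chrX:36795651-36798807, plus strand.

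Within these 3 carriers, the share of CPM per kilobase of exon that belonged to Slc25a4 was 4.36% and 1.71% in sex-converted MII and 5.19% and 2.67% in native MII oocytes, against 23.5% and 25.3% in sex-converted GV and 26.2% and 25.2% in native GV oocytes. The GV shares of Slc25a4 were close in all 4 libraries and the MII shares all far lower. The share of Slc25a31 was 49.9% to 62.4% at MII and 38.7% to 43.2% at GV, and that of Slc25a5 was 33.3% to 44.9% at MII and 31.8% to 35.2% at GV. These shares show unequal change among the carriers and do not depend on the scaling between libraries.

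**Figure D3:**
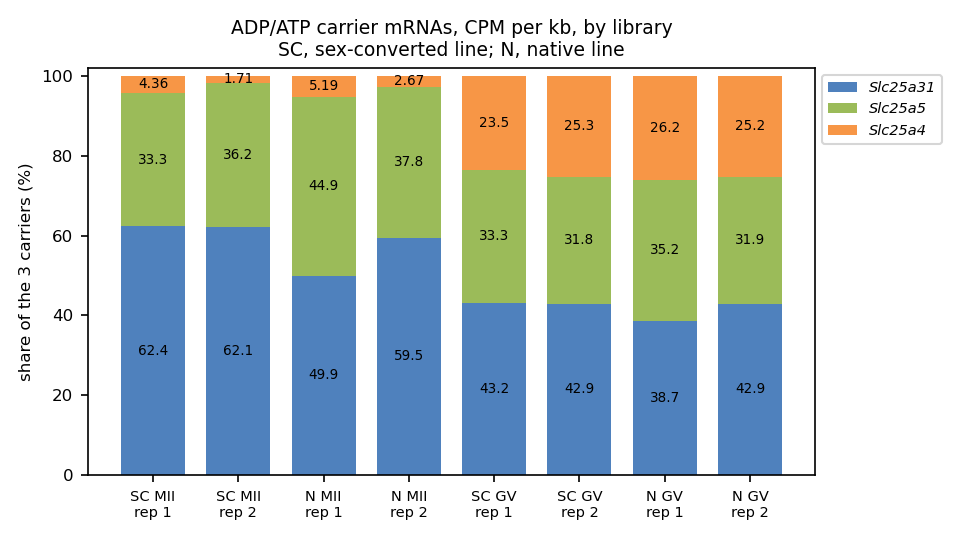
Share of each ADP/ATP carrier in the summed CPM per kilobase of exon of the 3 (percent) in each library (SC, sex-converted line; N, native line). Slc25a4 (orange, top) takes 1.71% to 5.19% in the 4 MII libraries and 23.5% to 26.2% in the 4 GV libraries.

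The ATP-Mg/phosphate carriers, which adjust the adenine nucleotide content of the matrix, did not move together. Slc25a23 was at 7.34 and 3.52 CPM in sex-converted MII and 5.06 and 2.43 CPM in native MII oocytes, against 51.3 and 63.3 CPM in sex-converted GV and 66.1 and 45.4 CPM in native GV oocytes. No MII library came near a GV library. The log2 fold change was -3.41 (SE 0.411, edgeR adjusted p = 2.95e-05) in the sex-converted and -3.87 (SE 0.426, adjusted p = 1.53e-05) in the native line, 10.6-fold and 14.7-fold lower. Slc25a24, a scarce member, went the other way, at 2.68 ± 0.382 and 3.26 ± 0.52 CPM in sex-converted and native MII oocytes and at 0.685 ± 0.211 and 0.267 ± 0.22 CPM in sex-converted and native GV oocytes (SD, n = 2 each). Its log2 fold changes were 1.97 in the sex-converted and 3.63 in the native line (SE 0.615 and 0.696, adjusted p = 0.0155 and 0.000826), and the sex-converted call was lost without sex-converted GV replicate 2 (1.71, adjusted p = 0.0802) or MII replicate 2 (1.81, adjusted p = 0.0768) and with library totals alone (1.03, adjusted p = 0.168). Slc25a25 had 0.43 in the sex-converted and 0.71 in the native line and was not called (adjusted p = 0.412 and 0.191), but without native GV replicate 2 the native value was 1.34 (adjusted p = 0.0399), and without sex-converted GV replicate 2 the sex-converted value was -0.027. Slc25a23 (ENSMUSG00000046329.14) is at chr17:57043711-57059863 of GRCm38, minus strand.

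Slc25a3, which brings phosphate and copper to ATP synthesis and cytochrome oxidase, was at 39.7 and 44.6 CPM in sex-converted MII and 47.3 and 40.4 CPM in native MII oocytes, against 42.4 and 44.6 CPM in sex-converted GV and 46.2 and 47.4 CPM in native GV oocytes. The libraries of both stages overlapped within a narrow range. It had log2 fold changes of -0.044 in the sex-converted and -0.094 in the native line (SE 0.21 each, adjusted p = 0.863 and 0.712 in edgeR), and with library totals alone it was called lower (-0.98 in the sex-converted and -1.01 in the native line). Slc25a17, a carrier of the peroxisome and not of mitochondria, was at 141 and 134 CPM in sex-converted MII and 93.8 and 135 CPM in native MII oocytes, against 97.0 and 87.9 CPM in sex-converted GV and 95.9 and 103 CPM in native GV oocytes. The stages overlapped in the native line through native MII replicate 1. It was called higher in the sex-converted line (0.57, adjusted p = 0.0328) and not in the native line (0.20, adjusted p = 0.424). By library totals alone it had -0.37 in the sex-converted line (adjusted p = 0.153) and was called lower in the native line (-0.71, adjusted p = 0.014). The sex-converted call was also lost on leaving out any single sex-converted library (0.53 to 0.65, adjusted p = 0.0784 to 0.138), and without native MII replicate 2 the native value was -0.11.

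Carriers of dicarboxylates, tricarboxylates and oxoacids had 2 of 5 tested genes lower and 0 higher in each line. At an unadjusted p under 0.05 the counts of the whole family were 29 in the sex-converted and 27 in the native line, 1 more than the calls in each. Over all 14929 tested genes these counts were 10315 in the sex-converted and 10231 in the native line. Slc25a1, which exports citrate for fatty acid synthesis, was at 14.9 and 6.09 CPM in sex-converted MII and 10.2 and 7.29 CPM in native MII oocytes, against 49.1 and 49.6 CPM in sex-converted GV and 45.2 and 52.8 CPM in native GV oocytes. The GV libraries were close together and all above the MII libraries. On the log2 scale the change was -2.24 (SE 0.37, edgeR adjusted p = 0.000281) in the sex-converted and -2.48 (SE 0.375, adjusted p = 0.000153) in the native line. Slc25a35 was at 4.60 and 1.90 CPM in sex-converted MII and 4.77 and 3.82 CPM in native MII oocytes, against 30.2 and 42.7 CPM in sex-converted GV and 42.7 and 36.0 CPM in native GV oocytes. The stages were again far apart, with log2 fold changes of -3.50 in the sex-converted and -3.19 in the native line (SE 0.397 and 0.387, adjusted p = 1.93e-05 and 3.03e-05). It shares 31.3% of its exon length with the antisense gene Rangrf, to which 2 reads were counted in all 8 libraries, against 2806 for Slc25a35.

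The other 3 of these genes had positive values that did not pass. Slc25a11, the oxoglutarate/malate carrier of the malate-aspartate shuttle, was at 15.4 and 14.4 CPM in sex-converted MII and 15.2 and 11.7 CPM in native MII oocytes, against 10.1 and 8.53 CPM in sex-converted GV and 4.34 and 10.2 CPM in native GV oocytes. The stages did not overlap, and native GV replicate 1 stood lowest. Its log2 fold changes were 0.67 in the sex-converted and 0.90 in the native line (adjusted p = 0.142 and 0.0639 in edgeR), or -0.26 and -0.027 with library totals alone, and it was called in the native line by DESeq2 (0.93, adjusted p = 0.0408) and without native GV replicate 2 (1.62, adjusted p = 0.0037). Slc25a11 shares 8.9% of its exon length with the antisense gene Rnf167, which had 3890 reads over the 8 libraries, against 1120 for Slc25a11. The dicarboxylate carrier Slc25a10 was at 2.71 ± 0.342 and 2.41 ± 0.784 CPM in sex-converted and native MII and 1.81 ± 0.901 and 1.68 ± 1.51 CPM in sex-converted and native GV oocytes (SD, n = 2 each). Its native value of 0.55 was -0.17 without native GV replicate 1 and 1.95 (adjusted p = 0.0497) without native GV replicate 2. The oxodicarboxylate carrier Slc25a21 had 1.34 in the sex-converted and 1.28 in the native line (adjusted p = 0.0576 and 0.0831), at 2.59 ± 0.977 and 1.77 ± 0.609 CPM in sex-converted and native MII and 1.01 ± 0.0836 and 0.721 ± 0.0747 CPM in sex-converted and native GV oocytes.

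Of the iron and glutathione carriers, 2 of 3 tested genes were higher and 1 lower in each line. Slc25a39, which brings glutathione into mitochondria, was at 92.6 and 75.4 CPM in sex-converted MII and 93.8 and 84.5 CPM in native MII oocytes, against 37.8 and 37.4 CPM in sex-converted GV and 28.6 and 41.5 CPM in native GV oocytes. All MII libraries exceeded all GV libraries, with log2 fold changes of 1.16 in the sex-converted and 1.35 in the native line (SE 0.236 and 0.237, adjusted p = 0.00122 and 0.000455 in edgeR). With library totals alone they fell short of a call (0.22 in the sex-converted and 0.43 in the native line). Its close relative Slc25a40 was at 31.2 and 40.9 CPM in sex-converted MII and 28.1 and 30 CPM in native MII oocytes, against 7.75 and 9.45 CPM in sex-converted GV and 7.57 and 5.98 CPM in native GV oocytes. It had log2 fold changes of 2.07 in the sex-converted and 2.09 in the native line (SE 0.276 and 0.28, adjusted p = 6.11e-05 and 6.19e-05), so that both glutathione carriers rose in both lines.

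Slc25a28 (mitoferrin 2), which carries iron into mitochondria outside the red cell lineage, was the most strongly lowered carrier of the sex-converted line. It was at 0.328 and 0.285 CPM in sex-converted MII and 1.53 and 0.579 CPM in native MII oocytes, against 11.9 and 9.70 CPM in sex-converted GV and 9.86 and 9.78 CPM in native GV oocytes. The MII values rest on 3 and 3 reads in the sex-converted and 16 and 5 reads in the native libraries, and all lay far below GV. The log2 fold change was -5.10 (SE 0.54, edgeR adjusted p = 1.17e-05) in the sex-converted and -3.18 (SE 0.454, adjusted p = 0.0001) in the native line. Its relative Slc25a37 (mitoferrin 1), the form of red cell precursors, had 25 reads in all 8 libraries and was not tested. Slc25a28 (ENSMUSG00000040414.8) is at chr19:43663801-43674881 of GRCm38, minus strand.

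The relatives of the uncoupling proteins were mixed. Slc25a14 was at 46.0 and 53.3 CPM in sex-converted MII and 42.3 and 37.7 CPM in native MII oocytes, against 30.8 and 22.8 CPM in sex-converted GV and 21.1 and 30.3 CPM in native GV oocytes. The stages did not overlap, and the log2 fold changes were 0.89 in the sex-converted and 0.64 in the native line (adjusted p = 0.011 and 0.0488 in edgeR), or -0.051 and -0.27 with library totals alone. The native call was lost without native GV replicate 1 (0.42) or any single MII library (0.55 to 0.69), with adjusted p of 0.0738 to 0.241, and the sex-converted call without sex-converted GV replicate 2 (0.72, adjusted p = 0.0779) or MII replicate 2 (0.78, adjusted p = 0.0726). Slc25a30 was at 3.29 ± 0.615 and 1.84 ± 0.176 CPM in sex-converted and native MII oocytes and at 8.85 ± 3.00 and 7.23 ± 2.11 CPM in sex-converted and native GV oocytes (SD, n = 2 each), with log2 fold changes of -1.43 in the sex-converted and -1.97 in the native line (adjusted p = 0.00945 and 0.002). Its sex-converted call was lost without sex-converted GV replicate 1 (-1.03, adjusted p = 0.0832) or MII replicate 2 (-1.24, adjusted p = 0.074). Slc25a27 stayed under 1 CPM in every library and was not called (-1.15 in the sex-converted and -2.41 in the native line), but with library totals alone it was called lower in the native line (-3.27, adjusted p = 0.0398).

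Slc25a46, a member of the outer membrane that acts in mitochondrial fission and fusion rather than transport, was at 15.7 ± 0.595 and 13.4 ± 0.188 CPM in sex-converted and native MII oocytes and at 4.48 ± 0.767 and 5.52 ± 1.33 CPM in sex-converted and native GV oocytes (SD, n = 2 each). It rose with log2 fold changes of 1.81 in the sex-converted and 1.28 in the native line (SE 0.318 and 0.315, adjusted p = 0.000439 and 0.00421 in edgeR). With library totals alone the native call was lost (0.37, adjusted p = 0.304).

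The stages differed in which carriers were most abundant per kilobase of exon. At MII the order of the mean over 4 libraries began with Slc25a15 at 105 CPM per kilobase, followed by Slc25a38 at 51.7, Slc25a16 at 45.0, Slc25a17 at 44.2 and Slc25a31 at 38.1. At GV it began with Slc25a48 at 52.8, followed by Slc25a31 at 38.4, Slc25a17 at 33.7, Slc25a15 at 30.8 and Slc25a5 at 30.1. Slc25a15 stood clear of the others at MII, with 106 ± 1.3 and 104 ± 0.397 CPM per kilobase in the sex-converted and native line (SD, n = 2 each). The GV leaders were less separated. Slc25a48 was at 51.0 ± 13.2 and 54.6 ± 18.7 and Slc25a31 at 37.8 ± 4.41 and 39.0 ± 8.99 CPM per kilobase in the sex-converted and native line. Slc25a48 lay above Slc25a31 in each of the 4 GV libraries, with 12.7% to 16.1% of the family's summed CPM per kilobase against 10% to 10.8% for Slc25a31.

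**Figure D4:**
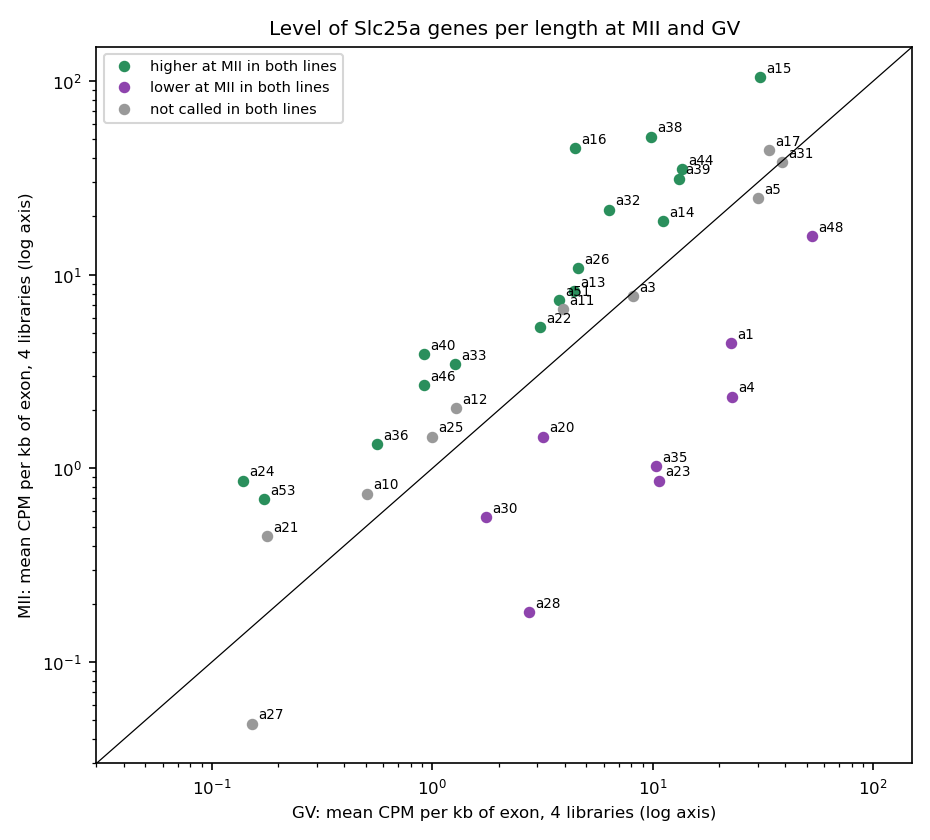
Mean level of 35 of the 36 tested Slc25a genes at MII (vertical) and GV (horizontal) in CPM per kilobase of exon over 4 libraries of both lines, on log axes (green, called higher at MII in both lines; purple, called lower in both; grey, others; the diagonal marks equal levels). Slc25a15 is highest at MII at 105 and Slc25a48 highest at GV at 52.8.

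GV libraries differed among themselves in a way that crossed the lines, and several carriers followed it. The summed CPM of the family was 1350 and 1410 in sex-converted GV replicate 1 and native GV replicate 2, and 1100 and 1090 in sex-converted GV replicate 2 and native GV replicate 1. Slc25a15, Slc25a26, Slc25a38 and Slc25a48 were all higher in the higher couple of libraries, as their values above show. They are themselves part of that sum, and not every carrier followed. Slc25a23 was lower in the higher couple (51.3 and 45.4 against 63.3 and 66.1 CPM). The 13 mRNAs encoded by the mitochondrial genome also went against the sum. They were at 526 and 558 CPM in sex-converted GV replicate 1 and native GV replicate 2. In sex-converted GV replicate 2 and native GV replicate 1 they were at 1670 and 1870 CPM. At MII the family summed to between 1970 and 2030 CPM and the mitochondrially encoded mRNAs to between 5910 and 7280 CPM, with no such split. Without sex-converted GV replicate 1 and native GV replicate 2 the median log2 fold change of the family was 1.06 and 1.04 in the sex-converted and native line. Without sex-converted GV replicate 2 and native GV replicate 1 it was 0.591 and 0.411. The part of the GV split in the carriers' values was not tested.

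The lines differed in no carrier at the threshold. Between sex-converted and native MII oocytes 0 of 36 Slc25a genes were called, and 0.0134% of all tested genes were. Between sex-converted and native GV oocytes 0 of 36 were called, again beside 0.0134%. For the interaction, which asks whether the stage change differed between lines, 0 of 36 were called and 0% of all tested genes. At an unadjusted p under 0.05 there was 1 carrier in each of these 3 comparisons, and DESeq2 called 0. Over all 14929 tested genes, 549 had such a p at MII, 319 at GV and 329 in the interaction. In the interaction the carriers with the smallest unadjusted p were Slc25a28, at -1.92 (95% interval -3.55 to -0.288), and Slc25a24, at -1.66 (95% interval -3.70 to 0.372). At MII they were Slc25a28, at -1.79 (SE 0.639), and Slc25a30, at 0.83 (SE 0.449). At GV they were Slc25a13, at -0.64 (95% interval -1.22 to -0.0683), and Slc25a24, at 1.38 (95% interval -0.217 to 2.98). Each of these values had an edgeR adjusted p of 1. The median absolute log2 difference between lines over the 36 carriers was 0.20 at MII and 0.13 at GV, beside 0.23 and 0.19 over all tested genes.

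The remaining 11 genes had too few reads to be tested at either stage. They were Slc25a2, Slc25a18, Slc25a29, Slc25a34, Slc25a37, Slc25a41, Slc25a42, Slc25a43, Slc25a45, Slc25a47 and Slc25a54. Slc25a2, a second ornithine carrier, had 0 reads in every library, and a count of 3 reads, the limit that 0 allows, is worth 0.285 to 0.347 CPM in an MII library and 0.146 to 0.211 CPM in a GV library. Slc25a18, the relative of the glutamate carrier Slc25a22, had 17 reads in all 8 libraries, Slc25a47 had 27, and Slc25a34, Slc25a41 and Slc25a43 had 2, 1 and 2.

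Because cytoplasmic polyadenylation in maturing oocytes depends on letters near the end of the transcript, these ends were read from the annotation. The letters TTTTAT or TTTTAAT, the core of the cytoplasmic polyadenylation element, were searched on the transcript strand in the last 100 bases of 1 annotated transcript a gene, and the poly(A) signal letters AATAAA or ATTAAA in the last 40. They stood in 22.2% of the 36 tested Slc25a genes (8 genes) and in 19.8% of the 11778 tested protein-coding genes that have a 3′ UTR of at least 100 bases. Over all of these, 33.4% of genes higher at MII in both lines held them and 10.2% of genes lower in both. Among the carriers, 4 of 17 higher genes held them (Slc25a16, Slc25a32, Slc25a44 and Slc25a53), 1 of 9 lower genes (Slc25a48) and 3 of the 10 others (Slc25a5, Slc25a11 and Slc25a17). The ends that carry both kinds of letters within 30 bases are printed because they show how closely the letters lie, on GRCm38 from GENCODE M21, 5′ to 3′ on the transcript strand, with both motifs in capitals. Slc25a16 is at chr10:62946469-62946498 on the plus strand, Slc25a32 at chr15:39091242-39091271 on the minus strand, Slc25a44 at chr3:88410499-88410528 on the minus strand, Slc25a48 at chr13:56474189-56474218 on the plus strand and Slc25a11 at chr11:70644200-70644229 on the minus strand.
Slc25a16: tatgatATTAAAagtaattTTTTATccttg
Slc25a32: gagtTTTTATttaagtgaaaAATAAAttta
Slc25a44: aaatgtaATTAAAagtTTTTATtgagcccc
Slc25a48: gacTTTTATgtggaaatcatAATAAAaggc
Slc25a11: aATTAAAgaaagtcacctactggTTTTATg
Slc25a16, Slc25a32 and Slc25a44 rose and Slc25a48 fell at MII, so the letters stood on both sides. A match describes the annotated end only, and the ends used in these oocytes were not measured.

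Relatives of the family under other symbols were few. Of Ucp1, Ucp2, Ucp3, Mtch1 and Mtch2, 3 were tested and 1 was higher in each line, with Ucp1 and Ucp3 at 0 reads throughout. Ucp2, an uncoupling protein, had 25 and 8 reads in sex-converted MII and 63 and 15 reads in native MII oocytes, against 3 and 5 reads in sex-converted GV and 6 and 1 reads in native GV oocytes. It was highest in the MII libraries with the highest stromal marker sums, and the part of somatic RNA in it was not tested. It had log2 fold changes of 2.97 in the sex-converted and 4.14 in the native line (SE 0.952 and 0.95, adjusted p = 0.0174 and 0.00266 in edgeR).

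Other transporters and channels of mitochondria went both ways, with 5 of 19 tested higher and 10 lower at MII in the sex-converted line and 7 higher and 9 lower in the native line. Mcu, the pore of the calcium uniporter, rose with log2 fold changes of 2.87 and 2.89 in the sex-converted and native line, the amino acid transporter relative Sfxn5 with 2.61 and 3.09 and the outer membrane channel Vdac1 with 1.93 and 1.92 in the same lines. Letm1, an ion exchanger of the inner membrane, fell with -4.25 and -4.37 in the sex-converted and native line, Sfxn4 with -4.0 and -4.41 and Vdac3 with -2.90 and -3.19. The 2 subunits of the pyruvate carrier went apart, with Mpc1 at 1.70 and 2.38 and Mpc2 at -2.10 and -1.87 in the sex-converted and native line, all called in edgeR. The difference between this list and the carriers was not tested.

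The import machinery, which brings in carriers and other mitochondrial proteins, had 5 of 24 tested genes higher and 12 lower in the sex-converted line. In the native line 5 were higher and 14 lower. Over all tested genes 29.3% were higher and 36.2% lower in the sex-converted line, and 29.6% and 35.7% in the native line. Timm17a, a subunit of the presequence translocase, was at 4.60 ± 0.623 and 3.41 ± 2.20 CPM in sex-converted and native MII oocytes and at 121 ± 8.05 and 127 ± 0.916 CPM in sex-converted and native GV oocytes (SD, n = 2 each). Timm50 fell with log2 fold changes of -5.03 and -4.77 in the sex-converted and native line, and Tomm40, the pore of the outer membrane, with -4.97 and -3.71. Of the small chaperones that guide carriers across the intermembrane space, Timm9, Timm10 and Timm10b fell, with -3.10, -3.37 and -2.83 in the sex-converted and -3.30, -1.67 and -2.85 in the native line, as did Timm13 with -5.81 and -3.04. Timm8b of the same kind rose with 1.19 and 1.06 in the sex-converted and native line (adjusted p = 0.001 and 0.00207 in edgeR). Timm8a1 had -1.06 in the sex-converted line (adjusted p = 0.342) and fell in the native line (-2.84, adjusted p = 0.0463). Timm22, the pore of the carrier translocase, was not called (-2.15 and -2.52 in the sex-converted and native line, adjusted p = 0.166 and 0.138 in edgeR). Agk, a subunit of that translocase, rose with 2.05 and 2.21 in the sex-converted and native line, Timm21 with 2.43 and 2.73 and Timm23 with 1.31 and 1.51.

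Enzymes that make or use the carried substrates were split, with 15 of 32 tested higher and 12 lower in the sex-converted line and 14 higher and 12 lower in the native line. Beside the ornithine carrier, Oat, which makes and uses ornithine in the matrix, was at 181 ± 1.06 and 159 ± 12.9 CPM in sex-converted and native MII oocytes and at 45.0 ± 9.92 and 42.4 ± 7.32 CPM in sex-converted and native GV oocytes (SD, n = 2 each), with log2 fold changes of 2.01 in the sex-converted and 1.91 in the native line (adjusted p = 1.64e-05 and 2.37e-05 in edgeR). Beside the glycine and folate carriers, the one-carbon enzymes Shmt2 and Mthfd2 rose with 1.84 and 1.92 in the sex-converted and with 1.76 and 2.02 in the native line. A further one-carbon enzyme of mitochondria, Mthfd1l, fell in the sex-converted line (-0.65, adjusted p = 0.0485 in edgeR) and had -0.45 in the native line (adjusted p = 0.153). Fech, which inserts iron in the last step of haem synthesis, fell with -1.69 and -1.31 in the sex-converted and native line. Mat2a, which makes S-adenosylmethionine, rose with 1.88 and 1.72 in the sex-converted and native line.

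Other carriers and enzymes of 1 pathway went apart in some cases and together in others. Slc25a1 fell while Acly, which splits the exported citrate, rose with 1.35 and 1.36 in the sex-converted and native line. Slc25a44 rose, as did Dbt of the branched-chain dehydrogenase, with 2.39 and 2.50 in the sex-converted and native line, while its partner subunit Bckdha fell with -4.58 and -3.98. Mdh2, the matrix malate dehydrogenase of the malate-aspartate shuttle, fell with -4.22 and -3.37 in the sex-converted and native line, while its cytosolic counterpart Mdh1 rose with 1.27 and 1.10. Beside the lower Slc25a20, the carnitine enzymes Cpt2 and Crat fell with -2.14 and -2.33 in the sex-converted and with -2.48 and -2.01 in the native line. Each of these changes was called in edgeR in both lines.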

How the data were processed

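The authors deposited raw read counts for 55385 genes and 8 libraries in a single table. Per the submitters' processing notes, reads were processed with Trimmomatic 0.38, HISAT2 2.1.0 and featureCounts 2.0.0 on mm10, and DESeq2 1.30.1 is also named. Per the labels' protocols, polyadenylated RNA went through a strand-keeping kit with 13 PCR cycles and was read as single reads of 75 bases. Not given in the sources used here are the counting strand, the annotation release and the treatment of multiple matches. Names, exon lengths and transcript ends came from GENCODE M21 on GRCm38, and 55144 identifiers matched without their version, while 241 did not (0.0033% of reads).

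Tests were run on these counts in edgeR 4.0.16 under R 4.3.3 (quasi-likelihood, TMM, filterByExpr with a minimum count of 10), all 8 libraries in 1 fit with a coefficient per group and 4 residual degrees of freedom, two-sided, with Benjamini-Hochberg adjustment over all 14929 tested genes and calls under 0.05. TMM factors were 0.714 to 0.733 at MII and 1.33 to 1.43 at GV, with a common biological coefficient of variation of 0.243. A standard error is the size of the log2 fold change divided by the square root of F. The comparisons were MII against GV in each line, the sex-converted against the native line at each stage, and their interaction. The script was tested on simulated counts.

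Full statistics were given for up to 3 called genes per role group and direction with the largest change at 10 CPM or more, the most abundant per kilobase, Slc25a3, Slc25a4, Slc25a5 and Slc25a31, and the 2 smallest p between lines. Up to 3 called genes per direction came from each other list, and further genes named there were chosen after their values were seen. One Slc25a gene and some genes of these lists that the rule names are counted but not reported here by name. The members and all lists were chosen with earlier results of these data known. Alternatives were other scalings, filters, DESeq2 1.42.0, a replicate block, fewer libraries in the fit and each library left out. Alternatives leaving out several libraries and a crossed block were added after the data were seen.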

Additional observations from a re-analysis of the deposited data

How the results depend on the processing

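Scaled by library totals alone, the calls of the family became 6 higher and 12 lower in the sex-converted and 8 higher and 14 lower in the native line, with medians of -0.196 and -0.221. In the sex-converted and native line, values that changed sign there were those of Slc25a10 (-0.349 and -0.374), Slc25a11 (-0.263 and -0.0272), Slc25a12 (-0.0399 and -0.392), Slc25a14 (-0.0514 and -0.274), Slc25a17 (-0.367 and -0.712), Slc25a22 (-0.211 and -0.049) and Slc25a25 (-0.518 and -0.213). In the sex-converted line alone Slc25a31 (-0.873) and Slc25a51 (-0.181) also changed sign, and in the native line Slc25a13 (-0.23). TMM and RLE assume that most genes balance out, so a change in total mRNA is not measured.

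Leaving out each library in turn gave 12 to 19 higher and 7 to 9 lower genes in the sex-converted line, with a median of 0.588 to 1.05. The 12 were reached without sex-converted GV replicate 2 and without sex-converted MII replicate 2. The native line gave 13 to 18 higher and 9 lower genes, with a median of 0.416 to 1.04. Without sex-converted GV replicate 1 and native GV replicate 2 the medians were 1.06 in the sex-converted and 1.04 in the native line, and without sex-converted GV replicate 2 and native GV replicate 1 the native median was 0.411. Slc25a31 in the sex-converted line was -0.018 without sex-converted GV replicate 2, -0.163 without sex-converted MII replicate 1, -0.0146 without sex-converted GV replicate 2 and native GV replicate 1, -0.148 without replicate 1 of both MII groups and -0.0366 at a mean of 50 reads, and was highest (0.261) without sex-converted MII replicate 2. In the native line it was 0.172 without native GV replicate 2, 0.00971 without native MII replicate 1, 0.167 without sex-converted GV replicate 1 and native GV replicate 2, and 0.0119 without replicate 1 of both MII groups, and lowest (-0.283) without sex-converted GV replicate 2 and native GV replicate 1. Slc25a3 in the sex-converted line was 0.00665 with RLE factors, 0.00675 in DESeq2, 0.0268 without sex-converted GV replicate 2, 0.0326 without sex-converted MII replicate 1, 0.0305 without sex-converted GV replicate 2 and native GV replicate 1, and 0.048 without replicate 1 of both MII groups, and lowest (-0.13) without sex-converted MII replicate 2. Slc25a10 in the native line was -0.167 without native GV replicate 1 and -0.172 without sex-converted GV replicate 2 as well, and 1.95 without sex-converted GV replicate 1 and native GV replicate 2. Slc25a25 in the sex-converted line was -0.0274 without sex-converted GV replicate 2 and -0.0237 without native GV replicate 1 as well, and 1.17 without sex-converted GV replicate 1 and native GV replicate 2. Slc25a17 in the native line was -0.114 without native MII replicate 2 and 0.428 without replicate 1 of both MII groups.

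Whether replicate numbers pair the libraries cannot be settled with 2 libraries a group, whose deviations mirror each other. Deviations of libraries with the same number correlated at 0.171 between the MII groups and -0.443 between the GV groups. Between MII and GV they correlated at 0.0679 in the sex-converted and -0.0384 in the native line. With the replicate block, 17 genes were higher and 9 lower in the sex-converted and 16 higher and 9 lower in the native line, and the calls of Slc25a17 (0.57, adjusted p = 0.0512) and Slc25a22 (0.731, adjusted p = 0.0726) in the sex-converted and Slc25a14 (0.645, adjusted p = 0.0739) in the native line were lost in edgeR. With a crossed replicate block the counts were 19 higher and 9 lower in the sex-converted and 18 higher and 9 lower in the native line. Without a filter beyond 1 read, 5 calls of the family were lost, at a mean of 50 reads 3, and with only the groups compared 2, all among Slc25a12, Slc25a13, Slc25a14, Slc25a17 and Slc25a22. The filter at a mean of 50 reads also left Slc25a24 and Slc25a53 untested, which took out 4 more calls, so 15 genes were higher in the sex-converted and 14 in the native line. DESeq2 lost none. Between the lines, the 1-read filter called 34 genes at MII, 13 at GV and 3 for the interaction, against 2, 2 and 0, none of them a carrier. DESeq2 called 4, 5 and 0, and fitting the compared groups alone called 1 at each stage. The causes were not tested. At this depth genes with few reads, such as Slc25a10, Slc25a21 and Slc25a27, have intervals too wide to place their change.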
